A study of Mus musculus with 6 samples.

Results

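NAD synthesis in mouse kidney was followed through 8 genes of the pathway, Afmid, Kmo, Kynu, Haao, Acmsd, Qprt, Nadsyn1 and Nampt, together with Ppargc1a, which encodes the transcriptional coactivator PGC-1 alpha. These 9 genes were taken by name from the annotation of the array. Of the 9, 8 had a probe set annotated to that gene alone, out of 18193 such genes in all, and Acmsd was not analysed here. Each gene was represented by the probe set with the highest mean intensity over the arrays, and all 8 passed a filter on dim genes that kept 12734 genes for testing.

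The kidneys came from male FVB/N mice aged 6 to 8 weeks and weighing 22 to 26 g. The vessels of the kidney on 1 side were clamped for 0, 45 or 60 min and then released, so that blood flow stopped and returned (ischemia-reperfusion), and RNA was made from kidneys collected 1 or 3 days later. The protocol gives 0 min as a clamp time of the same operation, under anaesthesia and through a flank incision. There was 1 Affymetrix 3' expression array for each of the 6 combinations of clamp time and day. No combination had a second array, and whether an array held RNA of 1 animal is not given in the labels. The p-values below therefore measure no spread between kidneys of the same combination. They rest on the spread of the 6 arrays around a model of clamp time plus day, with 2 residual degrees of freedom. For each gene, limma (eBayes) combined this spread with that over all genes tested. Where the clamp effects of the 2 days were compared, a second model was used, with 4 groups and 2 residual degrees of freedom.

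NAD is the electron carrier of fuel oxidation and the substrate of sirtuins and poly(ADP-ribose) polymerases. In the de novo route, tryptophan is opened to formylkynurenine, and Afmid, Kmo, Kynu and Haao encode the enzymes of the following steps. The product of Haao closes by itself to quinolinate unless the enzyme encoded by Acmsd diverts it, Qprt encodes the enzyme that commits quinolinate to NAD, and Nadsyn1 encodes the final amidating enzyme. Nampt encodes the rate-limiting enzyme of the other main route, the salvage of nicotinamide. The proximal tubule of the kidney, rich in mitochondria, runs the de novo route, and in mouse kidney PGC-1 alpha is known to raise the expression of de novo genes.

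In outline, Afmid, Kmo, Haao and Ppargc1a had their lowest intensities on the 2 arrays of 60 min kidneys, and the order 0, 45, 60 min ran downward for the chosen probe set of each on both days. With the probe sets of a gene averaged, Ppargc1a left this order, since its 45 min mean of day 1 lay above the 0 min mean. Afmid stood at 44.3% of the 0 min array after 60 min at day 1 and 43.9% at day 3, Kmo at 53.7% and 52.2%, Haao at 62.9% and 43.5%, and Ppargc1a at 68.0% and 56.2%. Qprt, Nadsyn1, Nampt and Kynu did not share this order. Under the main settings, limma called 0 of the 12734 genes tested at an adjusted p under 0.05 in each of its 5 contrasts. That was 0% of genes and 0 of the 8 members. Each difference below is therefore given by its size, and under the main settings had an adjusted p of at least 0.05. Calls under other settings are given further down.

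**Figure D1:**
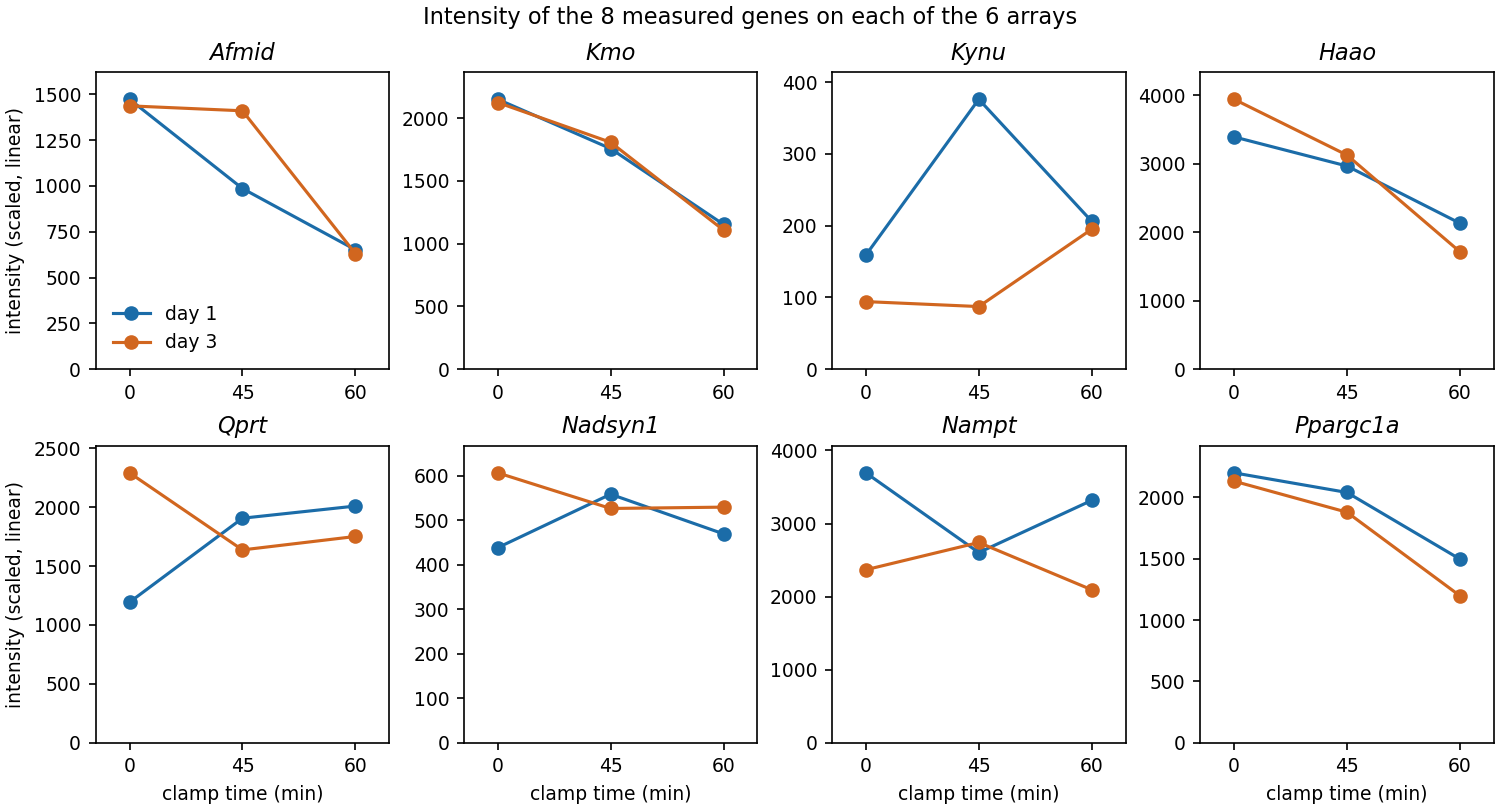
Intensity (scaled, linear, axes from 0) of the 8 measured genes against clamp time in min; each point is 1 array, with day 1 in blue and day 3 in orange, and lines join the arrays of a day. Afmid, Kmo, Haao and Ppargc1a are lowest at 60 min on both days, the lines of Qprt cross between 0 and 45 min, and Kynu peaks at 376 in the 45 min kidney of day 1.

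The promoters of the genes that shared the downward order, and of Qprt, which did not, are shown so that their letters can be compared. Sequences are from RefSeq (GRCm38.p6), 5' to 3' on the strand of the gene, from 250 bases before a RefSeq start, with the 50 bases from the start onward in capitals. The table gave 1 start per member. For Kmo and Qprt it is the outer end of the annotated gene. For Afmid it lies 416 bases, for Haao 2191 bases and for Ppargc1a 548 kb inside the gene. These windows do not show any other start of a gene, farther out or farther in.
Afmid, chr11:117825669-117825968 (+ strand): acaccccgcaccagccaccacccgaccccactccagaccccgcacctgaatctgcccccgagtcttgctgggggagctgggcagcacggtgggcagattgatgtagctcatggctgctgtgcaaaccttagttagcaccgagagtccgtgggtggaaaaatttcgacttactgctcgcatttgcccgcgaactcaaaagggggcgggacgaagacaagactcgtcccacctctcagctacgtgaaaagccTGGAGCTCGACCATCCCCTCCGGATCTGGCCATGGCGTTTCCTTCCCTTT
Kmo, chr1:175631943-175632242 (+ strand): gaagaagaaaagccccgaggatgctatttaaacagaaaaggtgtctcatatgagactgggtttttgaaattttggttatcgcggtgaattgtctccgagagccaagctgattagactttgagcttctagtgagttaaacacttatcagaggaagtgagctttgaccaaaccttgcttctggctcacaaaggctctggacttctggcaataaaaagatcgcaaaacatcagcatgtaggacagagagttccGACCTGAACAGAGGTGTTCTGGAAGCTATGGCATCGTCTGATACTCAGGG
Haao, chr17:83846741-83847040 (- strand): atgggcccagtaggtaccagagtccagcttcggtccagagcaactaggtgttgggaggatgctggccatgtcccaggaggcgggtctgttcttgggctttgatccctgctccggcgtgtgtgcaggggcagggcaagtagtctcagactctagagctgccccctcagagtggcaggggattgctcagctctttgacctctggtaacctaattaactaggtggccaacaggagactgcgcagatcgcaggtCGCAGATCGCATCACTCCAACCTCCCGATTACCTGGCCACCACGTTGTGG
Ppargc1a, chr5:51567676-51567975 (- strand): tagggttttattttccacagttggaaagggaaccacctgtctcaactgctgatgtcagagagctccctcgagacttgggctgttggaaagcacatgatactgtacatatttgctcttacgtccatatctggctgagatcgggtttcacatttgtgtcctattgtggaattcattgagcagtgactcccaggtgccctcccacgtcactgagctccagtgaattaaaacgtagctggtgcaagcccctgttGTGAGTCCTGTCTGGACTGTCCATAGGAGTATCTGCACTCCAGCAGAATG
Qprt, chr7:127121980-127122279 (- strand): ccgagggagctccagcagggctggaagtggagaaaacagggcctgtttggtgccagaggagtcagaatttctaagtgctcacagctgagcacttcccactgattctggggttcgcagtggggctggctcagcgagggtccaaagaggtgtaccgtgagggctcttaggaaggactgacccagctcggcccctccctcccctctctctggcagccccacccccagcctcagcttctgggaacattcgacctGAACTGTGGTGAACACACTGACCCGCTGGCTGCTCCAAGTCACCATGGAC

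The sequence table held 8 of the 9 members, all but Kynu. Neither strand of the 8 windows held TCAAGGTCA, a site of the ERR alpha receptor, or CAAAGTCCA, a site of HNF4 alpha. Neither held TGACGTCA, a full cAMP response element, or GGGACTTTC, a site of NF-kB. Of all 32851 windows of this length, 0.423%, 0.475%, 1.79% and 0.353% held them in that order, so a window without them is the usual case. Only these exact letters were sought, so near matches and shorter sites were not counted. Other starts of the members were not searched. The Kmo and Ppargc1a windows held 44.3% and 48.7% G and C, Haao, Afmid and Qprt 58.7%, 59.7% and 60.3%, and Nampt 76.3% with 36 CG pairs, against a median of 52.7% and 7 CG pairs over all windows. Thus the genes that shared the downward order had windows on both sides of that median.

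Afmid encodes kynurenine formamidase, which releases kynurenine from formylkynurenine. Its intensities at 0, 45 and 60 min were 1473, 986 and 652 at day 1, and 1437, 1410 and 631 at day 3. The 60 min kidneys were lowest on both days, whereas the 45 min kidney stood apart from the 0 min kidney only at day 1. Over both days the 60 min kidneys differed from the 0 min kidneys by -1.16 ± 0.20 on the log2(intensity + 16) scale (SE; limma unadjusted p = 0.00211, adjusted p = 0.0899), which was place 118 from the lowest among the 12734 genes. Against the 45 min kidneys the difference was -0.86 ± 0.20 (limma adjusted p = 0.311). The 60 min array lay below the 0 min array for all 4 probe sets of Afmid on both days, by -0.58 to -1.16 at day 1 and by -0.26 to -1.29 at day 3. The weakest of them had a mean intensity of 14.2, under the intensity of 48.4 at which the filter was set. The second brightest, with a mean intensity of 527, read 616, 624 and 353 at 0, 45 and 60 min of day 3. It therefore did not keep the downward order at day 3, and its 45 min array lay above the 0 min array there.

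Kmo encodes kynurenine 3-monooxygenase, an enzyme of the outer mitochondrial membrane that hydroxylates kynurenine. At 0, 45 and 60 min it had intensities of 2150, 1757 and 1153 at day 1 and of 2124, 1807 and 1108 at day 3. The days were close to each other at every clamp time, with day 3 at 96.1% to 103% of day 1. The 60 min kidneys were lower than the 0 min kidneys by -0.91 ± 0.14 (log2 difference ± SE, limma unadjusted p = 0.00139, adjusted p = 0.0811) and than the 45 min kidneys by -0.65 ± 0.14 (limma adjusted p = 0.306).

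Haao encodes the dioxygenase that makes the precursor of quinolinate. Its intensities at 0, 45 and 60 min were 3389, 2964 and 2130 at day 1 and 3938, 3124 and 1714 at day 3. The log2 difference of the 60 min from the 0 min array was -0.67 at day 1 and -1.19 at day 3, and the fitted difference -0.93 ± 0.19 (SE; limma unadjusted p = 0.00412, adjusted p = 0.103). With 1 array for each clamp time and day, whether the 60 min difference itself was unequal on the days was not tested.

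Kynu encodes kynureninase, which stands between Kmo and Haao in the route. Its intensities at 0, 45 and 60 min were 159, 376 and 206 at day 1 and 94.2, 87.3 and 195 at day 3. The 45 min kidney of day 1 was the highest of the 6 and the 45 min kidney of day 3 the lowest. The 60 min kidneys differed from the 0 min kidneys by 0.64 ± 0.44 (log2 difference ± SE, limma adjusted p = 0.453). This value rested on single arrays, being 0.03 without the 60 min array of day 3 and 1.25 without that of day 1. The second probe set of Kynu, with intensities of 6.6 to 30.9, lay under the filter on dim genes on every array and gives no check of this pattern. Markers of monocytes and macrophages, cells that also express kynureninase, summed over the 15 measured of 16 to 8846, 16384 and 15516 at 0, 45 and 60 min of day 1 and to 17662, 26549 and 64099 at day 3. Of the sum at 60 min of day 3, Lyz1 gave 20213 and Lyz2 17100. The part of monocytes and macrophages in the Kynu values was not tested.

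Qprt encodes quinolinate phosphoribosyltransferase. Its intensities at 0, 45 and 60 min were 1193, 1906 and 2009 at day 1 and 2291, 1637 and 1751 at day 3. Both clamped kidneys lay above the 0 min kidney at day 1, with 160% and 168% of it, and below it at day 3, with 71.4% and 76.4%. The 4 clamped arrays, from 1637 to 2009, all lay between the 2 arrays of 0 min kidneys, and the 0 min array of day 3 held 192% of that of day 1. The second probe set gave the same picture, with clamped kidneys from 1131 to 1382 between 0 min kidneys of 812 and 1673. The clamp effect differed between the days by -1.14 ± 0.30 (log2, day 3 minus day 1; limma unadjusted p = 0.0136, adjusted p = 1.0). This SE combines the gap between the 45 and 60 min arrays of a day with the same spread over all genes tested. For Qprt the log2 gaps were 0.08 at day 1 and 0.1 at day 3. Any spread among 0 min kidneys is not measured. Qprt was the 1 member of 8 with an unadjusted p under 0.05 in that contrast, as were 2.21% of all genes. Averaged over the days, the 60 min kidneys differed from the 0 min kidneys by 0.18 ± 0.33 (limma adjusted p = 0.784; 95% interval -0.66 to 1.02).

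Nadsyn1 encodes NAD synthetase. Its intensities at 0, 45 and 60 min were 438, 558 and 469 at day 1 and 606, 526 and 529 at day 3. As with Qprt, the clamped arrays lay above the 0 min array at day 1, below it at day 3 and between the 0 min arrays throughout, over a narrower range. The 60 min kidneys differed from the 0 min kidneys by -0.05 ± 0.18 (log2 difference ± SE, limma adjusted p = 0.906; 95% interval -0.52 to 0.43). Clamped arrays on opposite sides of the 0 min array on the 2 days were seen in 2 of the 8 members and in 14.1% of all genes.

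Nampt, the salvage gene, had intensities at 0, 45 and 60 min of 3694, 2603 and 3317 at day 1 and of 2368, 2741 and 2094 at day 3. The clamp times overlapped, and the 60 min kidneys differed from the 0 min kidneys by -0.17 ± 0.23 (log2 difference ± SE, limma adjusted p = 0.721; 95% interval -0.77 to 0.43). Day 3 lay at 64.1% of day 1 in 0 min kidneys and at 63.1% in 60 min kidneys, but at 105% in 45 min kidneys. Over the 3 clamp times the difference of day 3 from day 1 was -0.41 ± 0.19 (limma unadjusted p = 0.0854, adjusted p = 0.586), and 0 of 8 members had an unadjusted p under 0.05 in this contrast against 9.05% of all genes. A second bright probe set of Nampt read 1337, 1489 and 1077 at 0, 45 and 60 min of day 3 against 2221, 2276 and 2301 at day 1, so its days did not overlap. The 3 probe sets had mean log2 differences of day 3 from day 1 of -0.41, -0.80 and -0.61.

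Ppargc1a had intensities at 0, 45 and 60 min of 2201, 2041 and 1498 at day 1 and of 2133, 1880 and 1199 at day 3. The 60 min kidneys were the lowest on both days, and the 45 min kidneys held 92.7% and 88.1% of the 0 min array of the same day. The 60 min kidneys differed from the 0 min kidneys by -0.69 ± 0.15 (log2 difference ± SE, limma unadjusted p = 0.00664, adjusted p = 0.119) and from the 45 min kidneys by -0.54 ± 0.15 (limma adjusted p = 0.350). At 45 min of day 1, a pair of other probe sets read above the 0 min array, with 1921 against 1816 and 1964 against 1560. All 5 probe sets of Ppargc1a were lower at 60 than at 0 min on both days, with mean differences from -0.22 to -0.69. The probe set with the smallest difference was also the 1 whose day 3 values, 971, 978 and 834 at 0, 45 and 60 min, lay farthest below its day 1 values of 1560, 1964 and 1330.

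**Figure D2:**
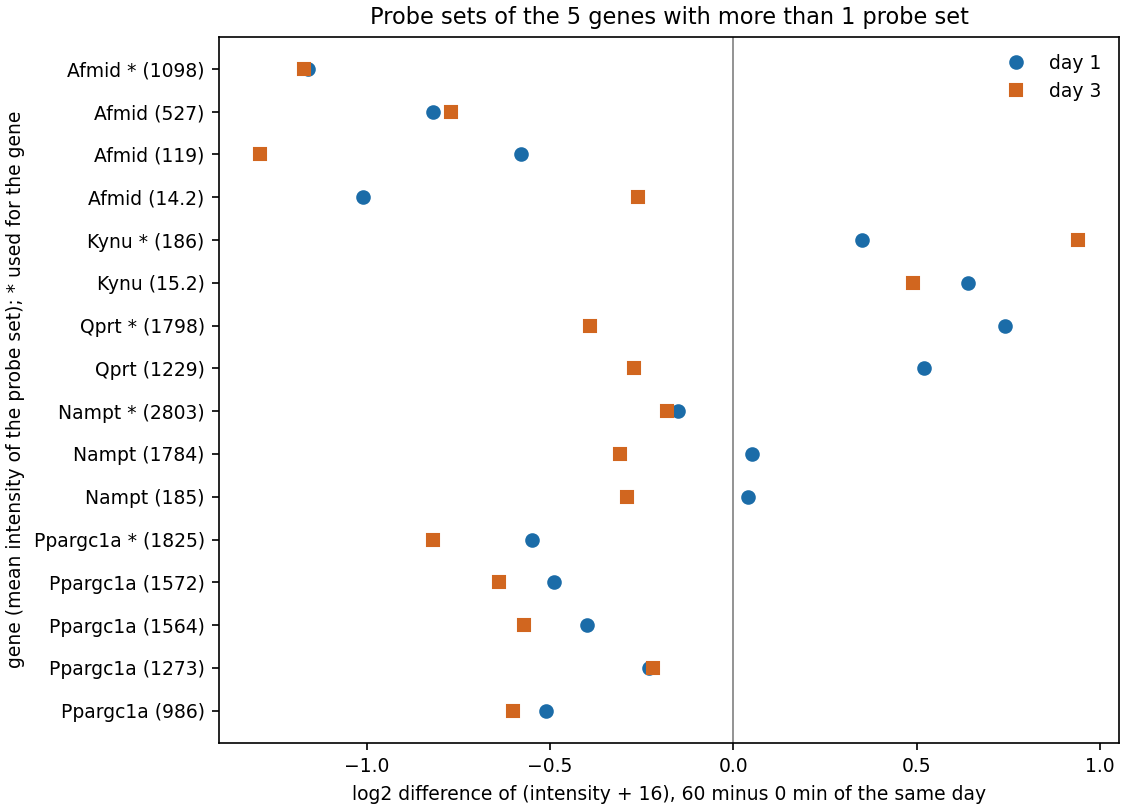
Log2 difference of (intensity + 16) between the 60 min and the 0 min array of the same day for every probe set of the 5 genes with more than 1, with the mean intensity of the probe set in brackets and an asterisk at the one used for the gene; circles are day 1 and squares day 3, 1 array against 1. All probe sets of Afmid and Ppargc1a lie left of 0, and both of Qprt lie right of 0 at day 1 and left of it at day 3.

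**Figure D3:**
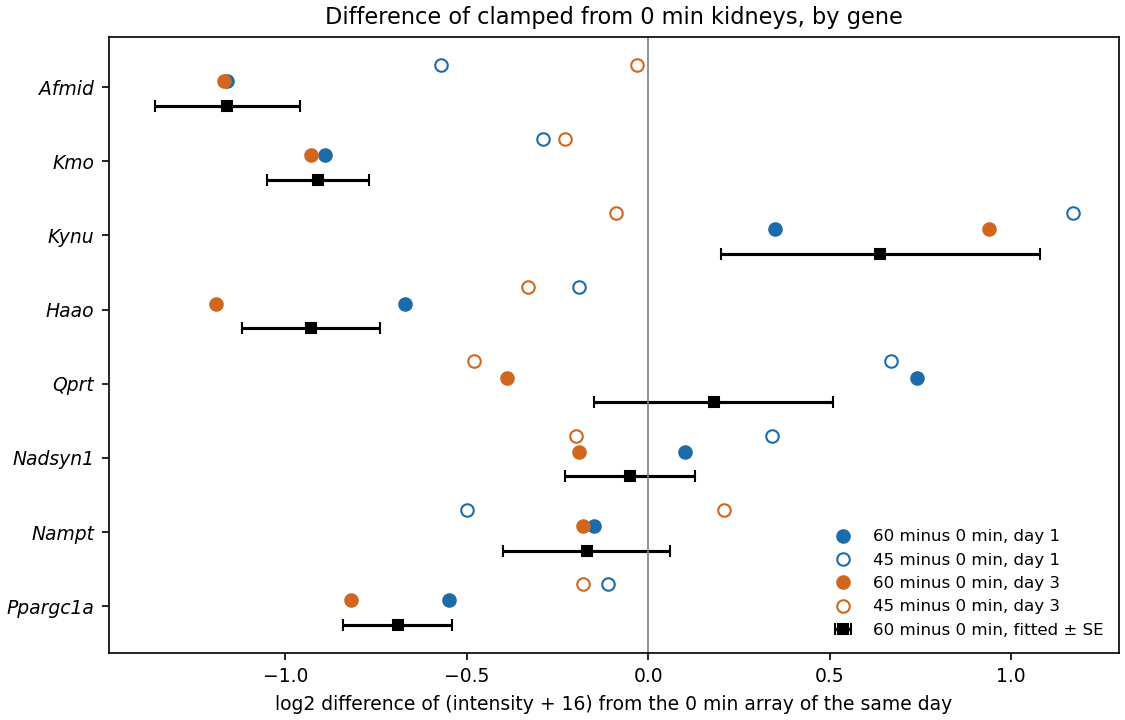
Log2 difference of (intensity + 16) of clamped from 0 min kidneys for the 8 genes; filled circles are 60 min and open circles 45 min arrays against the 0 min array of the same day, and black squares with bars are the fitted 60 min minus 0 min difference ± SE. Afmid, Kmo, Haao and Ppargc1a have both filled circles below -0.5, and the bar of Qprt spans 0.

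Counts over the 8 measured members were set beside those over the 12734 genes tested. With an unadjusted p under 0.05, 4 members (Afmid, Kmo, Haao and Ppargc1a) were lower in clamped than in 0 min kidneys, where 5.03% of all genes were lower and 14.6% passed in either direction. The same 4 were lower for 60 against 0 min, where 8.22% of genes were lower, 13.2% higher and 21.4% either. They were also lower for 60 against 45 min, where 5.29% of genes were lower and 13.0% passed in either direction. All 4 clamped arrays lay below both 0 min arrays for these 4 members and for 8.94% of genes, and both 60 min arrays lay below the other 4 for the same members and for 13.2% of genes. The order 0 above 45 above 60 min on both days, a count chosen after the values were seen, held for them and for 7.96% of genes. With probe sets averaged per gene, 3 members instead of 4 had all clamped arrays below both 0 min arrays, and 3 had the downward order on both days, Ppargc1a being the one lost from both.

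At 2-fold, single arrays gave fewer members. Afmid alone was at least 2-fold lower at 60 than at 0 min of day 1 (1.71% of genes), and Afmid and Haao were at day 3 (2.32% of genes). Of the members, 0 were at least 2-fold higher at 60 min, against 4.39% of genes at day 1 and 7.58% at day 3. At 45 min Kynu passed 2-fold at day 1 (4.63% of genes in either direction) and 0 members did at day 3 (2.29%). The median 60 min minus 0 min log2 difference was -0.43 over the 8 members and 0.03 over all genes tested.

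The calls of the 60 against 0 min contrast depended on the settings. With a robust variance trend, limma called 615 genes (4.83% of those tested), among them Kmo (adjusted p = 0.0161), Afmid (0.0197), Haao (0.0252) and Ppargc1a (0.0382). With a pseudocount of 64, Kmo (0.0438) and Afmid (0.0495) passed among 277 genes (2.17% of those tested). With a filter at the 60th percentile, Kmo passed (0.0426) among 202 genes (2.03% of the 9953 tested). Leaving out a 45 min array cannot change the 60 against 0 min difference in this model, so Afmid stayed at -1.16. Without 1 of the 0 or 60 min arrays, the Afmid difference lay between -1.30 and -1.02.

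Among the members, the profiles of Haao, Kmo and Ppargc1a lay closest. After each gene was centred on its mean over the 6 arrays, the root mean square distance between log2 profiles was 0.10 for Haao and Kmo, 0.13 for Kmo and Ppargc1a, and 0.14 for Haao and Ppargc1a. Afmid lay at 0.18 from Kmo and 0.19 from Haao, and Qprt lay at 0.20 from Nadsyn1 but at 0.46 to 0.66 from Haao, Kmo, Afmid and Ppargc1a. These distances rest on 6 arrays that all genes share, and they are descriptions.

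For the 3 members whose log2 values spanned at least 1, the genes with the most similar profile were sought over all named genes tested. For Haao these were Mcrip2, Cyfip2 and Vill, at distances of 0.057, 0.057 and 0.066. For Afmid they were Ugt3a1, Lpl and Slc39a8, at 0.065, 0.10 and 0.11. Ugt3a1 encodes a glycosyltransferase, Lpl encodes lipoprotein lipase and Slc39a8 a metal ion importer. Ugt3a1 had 8383, 6396 and 4003 at 0, 45 and 60 min of day 1 and 9201, 9117 and 3916 at day 3, with the 45 min kidney of day 3 near the 0 min kidney as for Afmid. The nearest genes of Kynu, namely Tet1, Cox6b2 and Wnt5a, lay farther off, at 0.21 to 0.23.

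Other genes of NAD metabolism were taken as a list of 32, 31 of them with a probe set and 27 bright enough to test. Limma's adjusted test for 60 against 0 min called 0 of the 27, and 6 were lower and 2 higher with an unadjusted p under 0.05, where 8.22% of all genes were lower and 13.2% higher. The median difference was -0.20 over the list and 0.03 over all genes tested.

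The largest differences of the list toward lower values were those of Slc22a13, Kyat3 and Aadat. Slc22a13, an organic anion transporter known in human and rat to carry nicotinate, had 1730, 1534 and 669 at 0, 45 and 60 min of day 1 and 1645, 1231 and 305 at day 3. Its 60 min kidneys differed from the 0 min kidneys by -1.86 ± 0.28 (log2 difference ± SE, limma adjusted p = 0.077). Kyat3 and Aadat encode aminotransferases that turn kynurenine into kynurenic acid, away from NAD, and differed by -1.06 ± 0.16 (limma adjusted p = 0.0811) and -0.97 ± 0.20 (adjusted p = 0.109). Aadat had 3659, 5305 and 2325 at 0, 45 and 60 min of day 1 and 5064, 6319 and 2060 at day 3, so it was highest at 45 min on both days, unlike Afmid, Kmo and Haao. Kyat1 and Got2, of the same branch, differed by -0.58 ± 0.34 and -0.20 ± 0.16. Of the genes that open tryptophan, Tdo2 and Ido1 lay under the filter and Ido2 was dim, with 86.9, 83.8 and 32.2 at day 1 and 91.2, 43.4 and 50.6 at day 3.

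The mitochondrial NAD carrier gene Slc25a51 differed by -0.30 ± 0.15. Of 5 measured genes for the steps that join NAD precursors to adenylate, use nicotinate or phosphorylate ribosides, 0 were at least 2-fold different at 60 min on either day, and the largest fitted differences were those of Nmrk1 (-0.28 ± 0.24), Nmnat2 (0.23 ± 0.27) and Nmnat1 (-0.21 ± 0.15). Nadk2, for the mitochondrial NAD kinase, differed by -0.52 ± 0.14 (limma adjusted p = 0.152) and Nadk, for the cytosolic kinase, by -0.19 ± 0.17. Nnmt, whose enzyme methylates nicotinamide and so removes it from salvage, had 84.3, 127 and 127 at 0, 45 and 60 min of day 1 and 71.1, 106 and 217 at day 3 (0.97 ± 0.28 for 60 against 0 min, limma adjusted p = 0.159). Aox1, for an oxidase of methylnicotinamide, differed by 0.16 ± 0.20.

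Among 11 measured genes of NAD-using enzymes, 1 was lower and 1 higher at an unadjusted p under 0.05, a share near the 21.4% of all genes. These were Sirt3, for the mitochondrial deacetylase (-0.53 ± 0.16, limma adjusted p = 0.172), and Bst1, for a cell-surface NAD-consuming enzyme (1.23 ± 0.42, adjusted p = 0.197). Bst1 had 230, 336 and 322 at 0, 45 and 60 min of day 1 and 235, 348 and 984 at day 3, so its value at 60 min of day 3 stood apart, on the array where the macrophage marker sum was also highest. The part of such cells in Bst1, which myeloid cells express, was not tested. Parp2, for a DNA damage-responsive polymerase, came next (0.52 ± 0.21), and Parp1 and Sirt1 differed by 0.08 ± 0.15 and -0.06 ± 0.16.

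**Figure D4:**
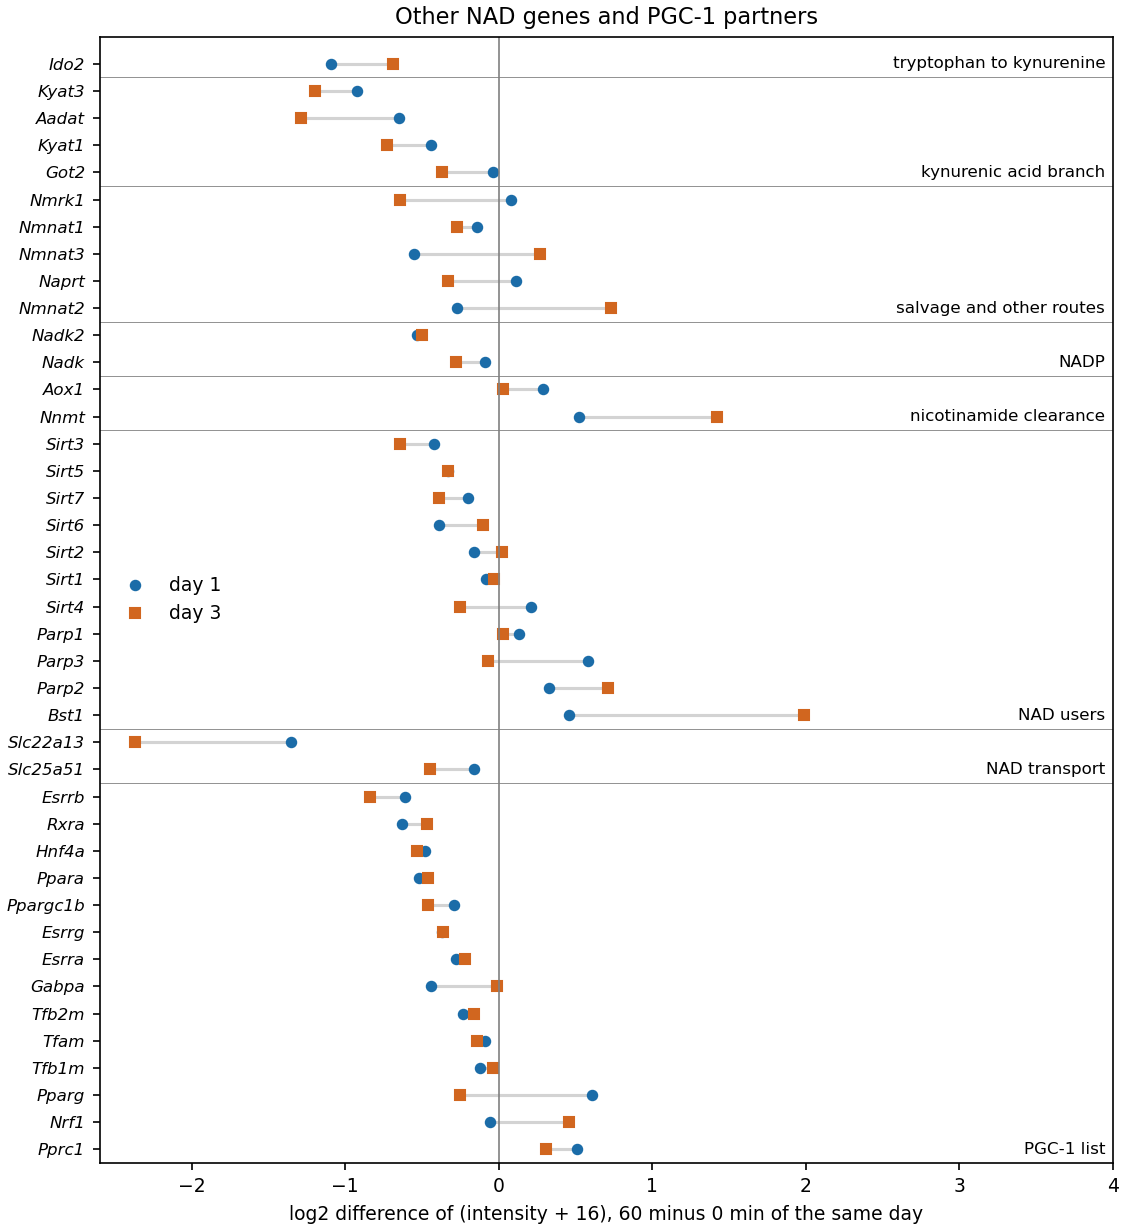
Log2 difference of (intensity + 16) between the 60 min and the 0 min array of the same day for the genes of NAD metabolism other than the members and for the PGC-1 list, grouped by role; circles are day 1, squares day 3, 1 array against 1. Slc22a13 reaches -2.37 at day 3, Bst1 reaches 1.99, and most of the PGC-1 list lies between -0.84 and 0.

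The list of PGC-1 coactivators, nuclear receptor partners and mitochondrial regulators held 14 genes, all measured. Of these, 11 were lower at 60 than at 0 min on both days, as were 31.7% of all genes, and the median difference was -0.24, against 0.03 over all genes tested. At an unadjusted p under 0.05, 2 were lower and 1 was higher (0 at an adjusted p), the same share as the 21.4% of all genes. Esrrb, for an estrogen-related receptor, differed by -0.73 ± 0.19 (limma adjusted p = 0.144), Rxra, the shared partner of many nuclear receptors, by -0.55 ± 0.17 (adjusted p = 0.174), Hnf4a, for a regulator of proximal tubule identity that also stands in the marker list below, by -0.50 ± 0.20 and Ppara, for the receptor that drives fatty acid oxidation, by -0.49 ± 0.30. The other coactivators of the family went different ways, with Ppargc1b at -0.37 ± 0.15 and Pprc1 at 0.41 ± 0.15 (limma adjusted p = 0.241 and 0.211). Tfam, for the packaging factor of mitochondrial DNA, differed by -0.11 ± 0.16.

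Cell markers and RNA quality also differed between the arrays. Markers of the proximal tubule, where the de novo route is strongest, had a median 60 min minus 0 min difference of -0.48 over 23 measured genes of 24, with 12 lower at an unadjusted p under 0.05 (8.22% of all genes) and summed intensities of 313371, 288582 and 229915 at 0, 45 and 60 min of day 1 and of 355677, 347418 and 253293 at day 3. In whole kidney RNA, fewer proximal tubule cells and less of a transcript per cell cannot be told apart. Loop and distal tubule markers had a median of -1.11 over 10 genes, collecting duct markers -0.48 over 7, endothelial markers -0.04 over 6, injury markers 2.65 over 6 of 8, and monocyte and macrophage markers had 1.40 over 15 genes. Neutrophil markers summed to 1015, 1242 and 1584 at 0, 45 and 60 min of day 1 and 1126, 1788 and 1981 at day 3 over the 6 of 12 that passed the filter. The median 60 min minus 0 min difference of those 6 was 0.5. Of the markers that did not pass, Mpo lay between 4.39 and 31.9. Fat markers, whose cells also express Nampt, had a median of -0.31 over 6 genes, from -0.47 for Cidec to 1.28 for Ucp1. They summed to 15857 to 19153, of which Fabp4 alone gave 12901 to 16022. The 3' to 5' log2 ratio of beta-actin control probe sets, a sign of RNA quality, was 1.08 to 1.12 at day 1, and 0.77, 1.03 and 0.49 at 0, 45 and 60 min of day 3. The same ratio for Gapdh was -0.23, -0.22 and -0.20 at 0, 45 and 60 min of day 1 and -0.37, -0.33 and -0.37 at day 3. The part of cell composition and of RNA quality in the differences of the NAD genes was not tested.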

How the data were processed

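The study measured mouse kidney RNA on 6 Affymetrix arrays. The deposited intensities are linear, 1 value per probe set and array, made by the authors with Affymetrix Expression Console per the submitters' processing notes; version and summarisation method: not given in the sources used here. The mean of each array after trimming 2% at each end was 500.003 on all 6, so the deposited intensities had been scaled to a common target. Median intensities lay between 81.4 and 95.3. Precision is limited by there being 6 arrays.

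The arrays held 45101 probe sets, 64 of them controls. A single symbol was given for 34945, several for 932 and none for 9160, and values were taken from the single-symbol sets. Each gene took its probe set with the highest mean intensity. Genes whose mean log2(intensity + 16) reached the 40th percentile of non-control probe sets (log2 6.01) were tested across all genes with limma 3.58.1 (eBayes; p adjusted by Benjamini-Hochberg; R 4.3.3). Adding 16 understates the change of dim genes. A model with terms for clamp time and day gave the contrasts of clamp times and of days, and its spread includes any clamp effect that is unequal on the 2 days. A second model, with 0 min and clamped kidneys of each day as 4 groups, gave the day 3 minus day 1 clamp effect, and its spread includes the gap between 45 and 60 min. The fit was tested on simulated data. Named genes were the 9 members, up to 3 genes with the largest 60 against 0 min difference per subgroup of the wider NAD list, up to 4 of the PGC-1 list, and the 3 nearest profiles of members spanning at least 1 on the log2 scale; Got2, Parp1, Sirt1, Tfam, Ppargc1b, Pprc1, Tdo2, Ido1 and the marker Mpo were named in addition, after their values were seen. The markers Lyz1 and Lyz2 were likewise named after their values were seen. Members and lists were chosen with earlier results of these data known. Further settings tried were other pseudocounts, scalings, filters, probe set rules and variance models, and leaving out each array.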

Additional observations from a re-analysis of the deposited data

Results flagged for a closer look

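Qprt was flagged because both clamped kidneys lay above the 0 min kidney at day 1 and both lay below it at day 3. Its clamp effect differed between the days by -1.14 (log2, day 3 minus day 1), with a limma adjusted p = 1.0.

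Nadsyn1 was flagged for the same pattern, with a change of -0.41 between days (limma unadjusted p = 0.261, adjusted p = 1.0). In both genes the pattern rests on 1 array of 0 min kidney per day. The pattern was seen in 2 of the 8 members and in 14.1% of all genes.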

How the results depend on the processing

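Of the differences of single members recomputed under other settings, 565 kept their direction and their side of the threshold, 9 passed it and 42 turned sign, 36 of these without 1 array; the cause was not tested. Clamped against 0 min called 1 gene after median centring, 75 with a robust variance trend, 1 without the day term, and 0 to 200 without 1 array (200 without 45 min day 3). For 60 against 0 min the counts were 277 with a pseudocount of 64, 135 after median centring, 202 with a filter at the 60th percentile, 20 with probe sets averaged per gene, 615 with the variance trend, 42 without the day term, and 0 to 450 without 1 array (450 without either 45 min array). Day 3 against day 1 called 4 with the trend and 0 to 1 without 1 array.

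With probe sets averaged per gene, all clamped arrays below both 0 min arrays, and the downward order on both days, each held for 3 members instead of 4, 0 members at day 1 and 1 at day 3 were at least 2-fold lower at 60 min, and Afmid had a change of the clamp effect between days of -0.01. For clamped against 0 min, Nadsyn1 turned to -0.06 after quantile normalization and -0.08 after median centring. Median centring also turned Haao and Kmo to 0.05 for day 3 against day 1 and Kmo to -0.08 for the change between days.

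Without 1 array, the range for clamped against 0 min was -0.43 to 0.71 for Qprt, -0.34 to 0.02 for Nampt and -0.19 to 0.22 for Nadsyn1. For 60 against 0 min it was -0.39 to 0.75, -0.35 to 0.02 and -0.25 to 0.16 for the same genes. For 60 against 45 min it was -0.21 to 0.38 for Qprt, -0.67 to 0.88 for Kynu, -0.38 to 0.34 for Nampt and -0.31 to 0.08 for Nadsyn1. For day 3 against day 1 it was -0.21 to 0.37 for Qprt, -0.12 to 0.15 for Haao, -0.04 to 0.01 for Kmo and -0.04 to 0.24 for Afmid. For the change between days it was -0.76 to 0.10 for Haao, -0.85 to 0.18 for Kynu, -0.34 to 0.36 for Kmo, -0.30 to 0.84 for Afmid and -0.49 to 0.15 for Ppargc1a; it could not be fitted without a 0 min array. Day is already a term of the reported model, which compares arrays of the same day, and the counts without it are given above. No paired analysis was possible beyond that because each combination of clamp time and day had 1 array.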
